A study of Mus musculus with 12 samples.

Results

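The hypoxia response genes examined here were Hif1a, Egln1, Egln3, Vegfa, Adm, Pfkfb3, Pfkfb4, Bnip3, Ddit4 and Ankrd37, chosen by symbol from an expression table of 20718 genes, in which all 10 were found. They were followed in testis RNA of IRC mice, as the labels write the strain (ICR in the study's methods), in 4 groups of 3 libraries. Males were injected in the testes with lentivirus at 4 weeks of age, mated for 4 days from 9 weeks of age, and their testes were collected after another 4 days. In F0_5251KD the virus carried 3 mixed short hairpin RNAs that target the long non-coding RNA lncRNA5251, in the LV3 backbone, and F0_3NC received the negative control virus of that backbone. In F0_5251OV the virus carried full-length lncRNA5251 in the LV5 backbone, and F0_5NC received the LV5 vector. Every group, controls included, was therefore injected with virus, and no uninjected testis is part of the comparison. The methods do not say which testicular cells took up the virus. No gene in the table is named lncRNA5251, so its knockdown and overexpression were not checked here.

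Cells sense oxygen through prolyl hydroxylases, which mark the α subunit of hypoxia-inducible factor (HIF) for destruction by the VHL ubiquitin ligase while oxygen is present. When oxygen falls, the subunit escapes, pairs with ARNT and binds short DNA motifs near genes for glycolysis, blood vessel growth and survival, among them genes of the hydroxylases themselves. The seminiferous epithelium has no vessels of its own, and its germ cells receive oxygen across the tubule wall. Transcripts of this kind can also change in tissue that waits between loss of circulation and RNA preservation, an interval that the labels and methods do not give.

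Upstream sequence of the genes on which the results below turn is shown first, because all 10 genes were chosen for a shared link to HIF. Letters in capitals mark every ACGTG or GCGTG, the core letters bound by HIF, on either strand (on the other strand they read CACGT or CACGC), and overlapping matches are joined. Each line holds the 250 bases before 1 annotated transcript start, 5′ to 3′ on the strand of the gene, from RefSeq on GRCm38.p6.

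Hif1a, chr12:73907617-73907866, forward strand: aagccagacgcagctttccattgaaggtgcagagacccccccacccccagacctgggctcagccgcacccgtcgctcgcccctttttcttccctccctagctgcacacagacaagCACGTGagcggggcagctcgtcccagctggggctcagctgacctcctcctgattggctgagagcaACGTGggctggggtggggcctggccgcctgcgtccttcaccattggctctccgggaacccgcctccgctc
Bnip3, chr7:138909507-138909756, reverse strand: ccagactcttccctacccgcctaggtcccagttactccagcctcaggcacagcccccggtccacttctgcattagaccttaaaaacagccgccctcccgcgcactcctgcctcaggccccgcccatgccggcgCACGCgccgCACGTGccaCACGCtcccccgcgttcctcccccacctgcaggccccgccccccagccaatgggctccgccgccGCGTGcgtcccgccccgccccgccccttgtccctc
Egln1, chr8:124949255-124949504, reverse strand: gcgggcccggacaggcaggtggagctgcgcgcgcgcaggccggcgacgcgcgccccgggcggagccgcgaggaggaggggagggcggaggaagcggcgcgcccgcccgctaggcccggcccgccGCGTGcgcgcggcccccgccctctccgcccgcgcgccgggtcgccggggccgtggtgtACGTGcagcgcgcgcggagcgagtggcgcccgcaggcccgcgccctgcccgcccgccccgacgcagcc
Ddit4, chr10:59951771-59952020, reverse strand: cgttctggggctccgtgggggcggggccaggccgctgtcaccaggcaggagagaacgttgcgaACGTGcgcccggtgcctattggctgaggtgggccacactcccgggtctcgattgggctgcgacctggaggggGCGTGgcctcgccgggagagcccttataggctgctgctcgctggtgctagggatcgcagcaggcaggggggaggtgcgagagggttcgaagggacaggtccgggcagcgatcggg
Vegfa, chr17:46032378-46032627, reverse strand: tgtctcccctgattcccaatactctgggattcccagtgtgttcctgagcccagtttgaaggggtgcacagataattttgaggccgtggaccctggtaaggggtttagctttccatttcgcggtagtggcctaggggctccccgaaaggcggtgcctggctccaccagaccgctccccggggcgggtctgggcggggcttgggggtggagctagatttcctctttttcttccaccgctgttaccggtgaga

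Windows from 250 bases before to 50 bases after a start were available for all 10 genes, 12 windows in all. The 2 motifs were found in 11 of 12 windows (91.7%), compared with 14380 of 32851 windows of all genes (43.8%). By gene, 10 of 10 had at least 1 match, against 34 of 40 genes of a list of further HIF targets (85%) and 12628 of 27025 genes in all (46.7%). Among single windows, that of Bnip3 had the most matches (4). The window of the outer Vegfa start had 0, whereas that of the inner Vegfa start had 2. A match describes letters in the window and was not read as a binding site.

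The totals ranged from 15431383 to 16355720 estimated counts per library, a ratio of 1.06. Testicular identity was checked with 14 germ cell markers, all of them detected, which summed to between 14100 and 18600 CPM (counts scaled to library size, here with edgeR's trimmed mean of M values, TMM). Separate animals for the 3 libraries of a group are not stated in the labels, so the p-values measure the spread between libraries, which may be technical.

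The 10 genes spanned a 66.3-fold range of length-scaled level (RPKM, reads scaled to transcript length and library size, as deposited), with the glycolytic regulator Pfkfb4 highest. Mean RPKM over the 12 libraries was 18.6 for Pfkfb4, 13.5 for Bnip3, 12.6 for Pfkfb3, 8.58 for Ddit4 and 6.43 for Hif1a. It was 3.31 for Egln1, 3.16 for Ankrd37, 1.85 for Vegfa, 0.346 for Egln3 and 0.281 for Adm. Pfkfb4 lay above 77.6% of all genes in the table and Adm above 23.3%. Most neighbours in this order were not separated by their spread. The ranges over the 12 libraries overlapped between all neighbours except Vegfa and Egln3, and Egln1 exceeded Ankrd37 in 6 of 12 libraries.

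**Figure D1:**
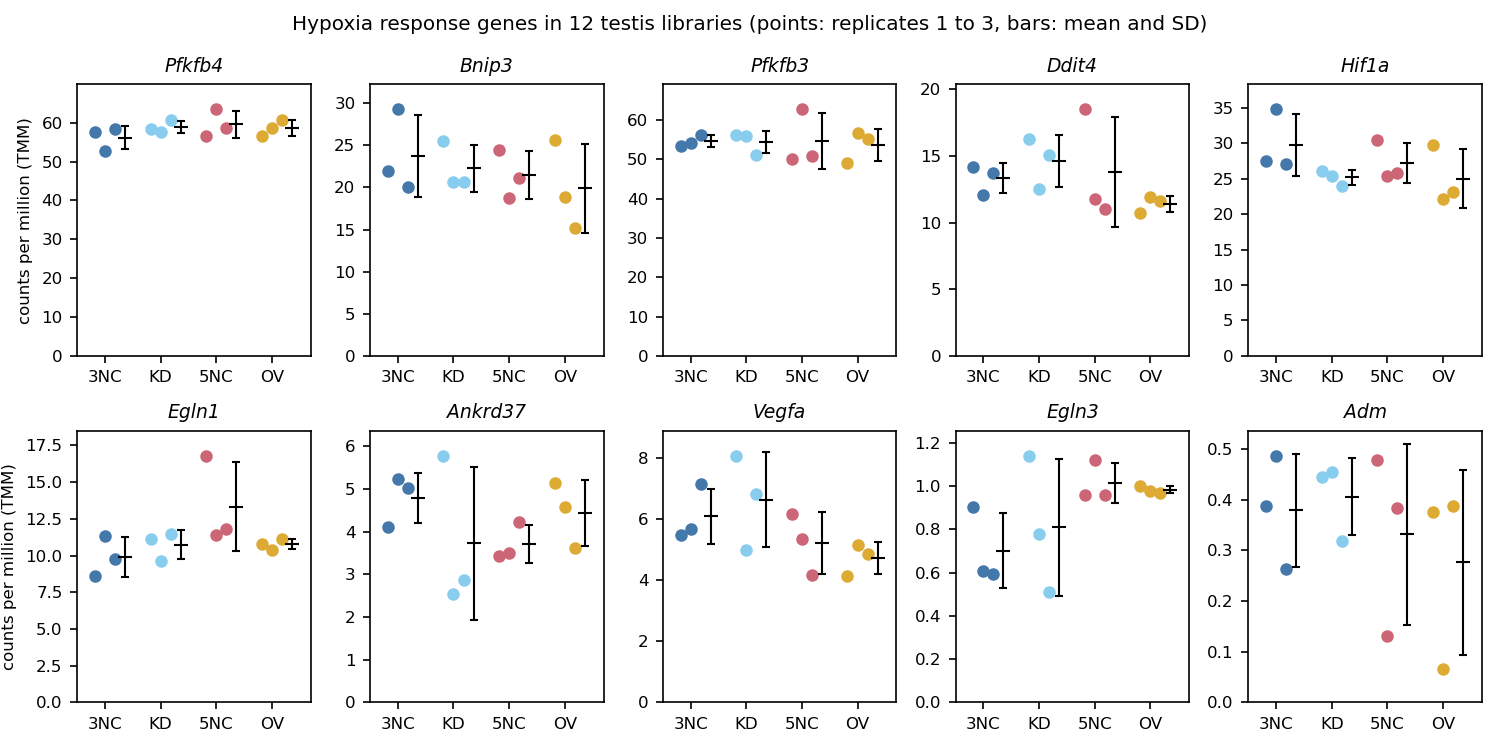
TMM-scaled CPM (vertical axes, each from 0) of the 10 hypoxia response genes in the libraries of F0_3NC (3NC), F0_5251KD (KD), F0_5NC (5NC) and F0_5251OV (OV). Points are replicates 1 to 3 from left to right, and bars give the mean and SD of 3 libraries. Pfkfb3 and Pfkfb4 were level across groups, and F0_5NC replicate 1 stood above the other libraries for Egln1 (16.8 CPM) and Ddit4 (18.5 CPM).

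The genes differed in how steady they were within groups. Pfkfb4 had a within-group coefficient of variation of 4.58%, against 3.31% from counting alone, and Pfkfb3 had 8.07% against 3.43%. Bnip3 had 19.1% against 5.39%, so it varied between libraries of the same group well beyond counting. Ankrd37 had 26.9% against 12.4%, but its spread was wide mainly in F0_5251KD (3.73 ± 1.79 CPM, SD, n = 3). It was 4.79 ± 0.588 CPM in F0_3NC, 3.71 ± 0.442 in F0_5NC and 4.44 ± 0.768 in F0_5251OV. For the scarce Egln3 the within-group variation (23.7%) was no larger than counting gives (27.0%), and for Adm the values were 46.1% and 42.6%.

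Of the 10 genes, 9 passed the filter on low counts and were tested, and Adm did not. None of the 9 was called in any comparison by edgeR's quasi-likelihood test at an adjusted p (Benjamini-Hochberg over 16296 genes) under 0.05. Among all genes tested, 0.0245% were called in F0_5251KD vs F0_3NC, 0% in F0_5251OV vs F0_5NC and 0.331% in F0_3NC vs F0_5NC. In the average of the LV3 groups (F0_3NC and F0_5251KD) against that of the LV5 groups (F0_5NC and F0_5251OV), 0.706% were called, and 0% in the difference between the effects of knockdown and overexpression. DESeq2 called 0 of the 9 genes as well.

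Single genes rarely passed even the unadjusted threshold of 0.05. In F0_5251KD vs F0_3NC 0 of 9 did so, with 4.74% of all genes tested, and in F0_5251OV vs F0_5NC 0 of 9, with 8.77%. In F0_3NC vs F0_5NC 1 of 9 did, Egln1, with 11.9% of all genes, and in the LV3 against the LV5 groups 1 of 9, Vegfa, with 6.35%. For the difference of effects it was 0 of 9, with 11.3% of all genes. At most 1 of the 9 genes passed in each comparison.

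The median log2 fold change of the 9 genes was 0.068 in F0_5251KD vs F0_3NC, where 5 were higher and 4 lower, and the median of all genes tested was -0.004. It was -0.107 in F0_5251OV vs F0_5NC, where 1 gene (Ankrd37) was higher and 8 were lower, against -0.002 for all genes, of which 49.5% were higher. Without F0_5NC replicate 1, the median of the 9 genes in that comparison was -0.034. For F0_3NC vs F0_5NC the median was 0.002 (5 higher, 4 lower), against 0 for all genes. These comparisons share their control libraries, so their values are not independent of each other.

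**Figure D2:**
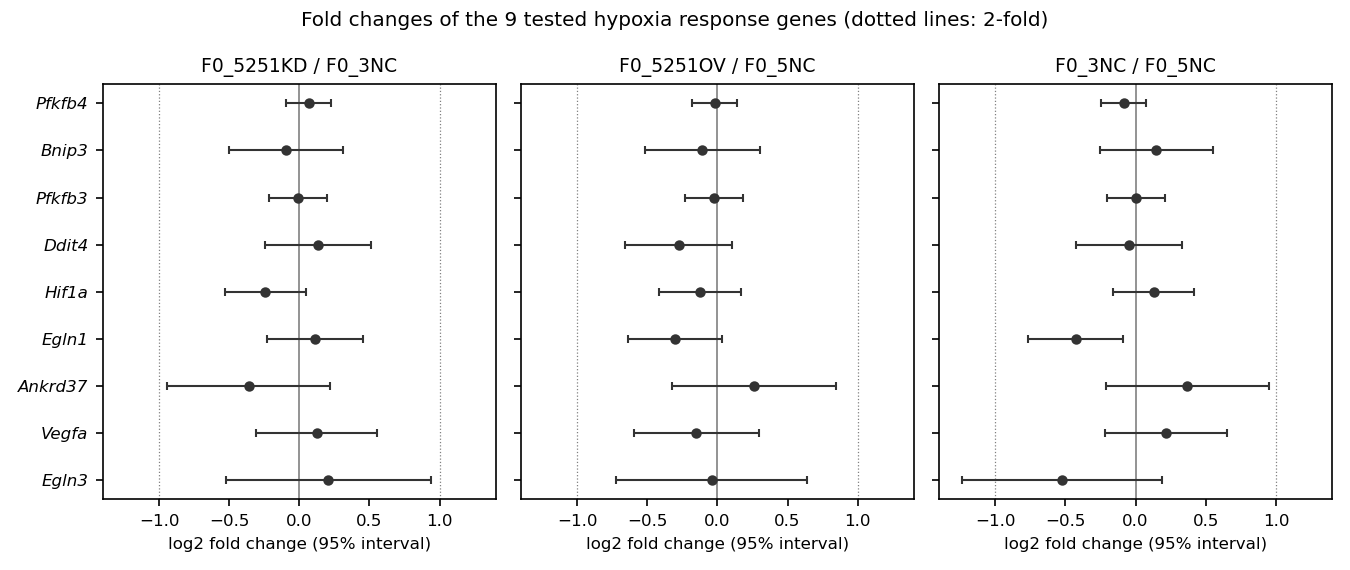
Log2 fold changes (horizontal axis) of the 9 tested genes in F0_5251KD vs F0_3NC, F0_5251OV vs F0_5NC and F0_3NC vs F0_5NC, with 95% intervals from edgeR's fit of 12 libraries. The intervals of Pfkfb3 and Pfkfb4 were the narrowest in all 3 panels, and the interval of Egln1 in F0_3NC vs F0_5NC (-0.764 to -0.092) was the one that did not include 0.

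Hif1a encodes the oxygen-regulated α subunit of HIF-1, whose control is mainly at the level of the protein. It was at 27.5, 34.8 and 27.0 CPM in F0_3NC and at 26.1, 25.4 and 24.0 CPM in F0_5251KD. In CPM all 3 knockdown libraries were below all 3 controls, by a narrow margin. In RPKM the 2 groups overlapped, with 6.54 in F0_5251KD replicate 1 and 6.43 in F0_3NC replicate 3. In this comparison 1 of 10 genes had groups that did not overlap in CPM, while 11.8% of all genes tested had such groups. The fold of the group levels was 0.845 (95% interval 0.691 to 1.03, log2 fold change -0.24 ± 0.14 SE, adjusted p = 0.897 by edgeR). Without F0_3NC replicate 2, the library with the highest Hif1a, the log2 fold change was -0.11. The LV5 groups overlapped, with 30.5, 25.4 and 25.8 CPM in F0_5NC and 29.8, 22.1 and 23.1 CPM in F0_5251OV.

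Egln1 and Egln3 encode prolyl hydroxylases (PHD2 and PHD3), the oxygen sensors that are themselves HIF targets. Egln1 was at 8.63, 11.3 and 9.78 CPM in F0_3NC, 11.1, 9.6 and 11.5 CPM in F0_5251KD, 10.8, 10.4 and 11.1 CPM in F0_5251OV, and 16.8, 11.4 and 11.8 CPM in F0_5NC. In CPM the F0_5NC libraries were above all those of F0_3NC (narrowly, 11.4 against 11.3) and of F0_5251OV. In RPKM F0_3NC and F0_5NC overlapped, at 3.36 in F0_3NC replicate 2 and 3.28 in F0_5NC replicate 2. Replicate 1 of F0_5NC stood far above the remaining 11 libraries, which reached at most 11.8 CPM. Egln1 was 0.743-fold in F0_3NC relative to F0_5NC (95% interval 0.589 to 0.938, log2 fold change -0.43 ± 0.16 SE, unadjusted p = 0.0163, adjusted p = 0.348 by edgeR). In F0_5251OV it was 0.810-fold of F0_5NC (0.642 to 1.02, adjusted p = 0.58). Without F0_5NC replicate 1, the log2 fold changes were -0.23 (unadjusted p = 0.113) and -0.11 (unadjusted p = 0.451), and without F0_3NC replicate 1 the first was -0.33 (unadjusted p = 0.0798), all from edgeR's fit across genes.

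In F0_3NC vs F0_5NC, 2 of 10 genes had groups that did not overlap in CPM, Egln1 and Egln3, both lower in F0_3NC, and 17% of all genes tested had such groups. In F0_5251OV vs F0_5NC it was 1 of 10 (Egln1), with 13.9% of all genes. Cell type markers were read in the same comparisons. All 12 Sertoli cell markers were lower in F0_3NC than in F0_5NC, 0 of them called, and their sums ranged from 764 to 1040 CPM in F0_3NC and from 1020 to 1480 CPM in F0_5NC. The 10 endothelial markers were likewise all lower, with sums of 44.4 to 49.3 against 53.2 to 60.4 CPM. Other lists were mixed there, with 5 of 8 Leydig cell, 7 of 9 macrophage, 4 of 7 smooth muscle and 7 of 14 germ cell markers lower. In F0_5251OV vs F0_5NC all 12 Sertoli cell markers, all 8 Leydig cell markers and all 10 endothelial markers were lower, again with 0 called. So were 8 of 9 macrophage and 6 of 7 smooth muscle markers, whereas 10 of 14 germ cell markers were higher. No marker of these lists was at 0 in a whole group, and their part in the Egln1 values was not tested. In whole testis, fewer cells of a type and less RNA per cell cannot be told apart.

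Egln3 was near the floor of these libraries. F0_3NC had counts of 14, 10 and 9, and F0_5251KD had 18, 12 and 8. F0_5NC had 16, 17 and 15, and F0_5251OV had 16, 15 and 15. The LV5 groups were tight and the LV3 groups scattered. The fold of F0_3NC over F0_5NC was 0.695 (95% interval 0.425 to 1.14, adjusted p = 0.525 by edgeR), which includes a level 2-fold lower as well as no change. The third hydroxylase, Egln2 (PHD1), a testis-enriched enzyme that is not known to be induced by low oxygen, was far more abundant. Its mean RPKM lay between 244 in F0_3NC and 275 in F0_5NC, with 0 calls in the 5 comparisons.

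Vegfa encodes the main growth factor of vascular endothelium and, in testis, is made by Sertoli and Leydig cells. It was at 5.48, 5.66 and 7.13 CPM in F0_3NC and 8.07, 4.99 and 6.83 CPM in F0_5251KD. In the LV5 groups it was at 6.17, 5.35 and 4.16 CPM in F0_5NC and 4.14, 5.16 and 4.85 CPM in F0_5251OV. The 6 LV3 libraries tended to lie above the 6 LV5 libraries, but the groups overlapped. Their difference was 1.28-fold (95% interval 1.03 to 1.59, log2 fold change 0.36 ± 0.14 SE, unadjusted p = 0.0276, adjusted p = 0.705 by edgeR), and it was 0.27 on the log2 scale without F0_5251KD replicate 1, the library with the highest Vegfa. None of the 10 genes separated the 6 LV3 from the 6 LV5 libraries without overlap, and 0.749% of all genes tested did. Vegfa did not pass the test with knockdown or with overexpression (folds of 1.09, 0.809 to 1.47, and 0.900, 0.662 to 1.23).

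Adm encodes adrenomedullin, a vasodilator peptide that rises with HIF in many tissues. Its counts over 3 libraries were 18 in F0_3NC, 19 in F0_5251KD, 16 in F0_5NC and 13 in F0_5251OV. These correspond to 0.382 CPM (exact Poisson 95% interval 0.226 to 0.604), 0.406 (0.244 to 0.634), 0.337 (0.193 to 0.548) and 0.278 (0.148 to 0.475), and the intervals, which cover counting error only, overlapped throughout. With no filter on low counts, the fold of F0_5251KD over F0_3NC lay between 0.46 and 2.49 (95% interval), so a change of Adm within these bounds was not detectable.

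Pfkfb3 and Pfkfb4 encode bifunctional enzymes that set the level of fructose 2,6-bisphosphate, the activator of glycolysis, and Pfkfb4 is the isoform first known from testis. Pfkfb4 ranged from 52.8 to 63.5 CPM over all 12 libraries and Pfkfb3 from 49.1 to 62.7 CPM. Group means were 56.2 ± 2.99 CPM in F0_3NC, 58.9 ± 1.58 in F0_5251KD, 59.5 ± 3.6 in F0_5NC and 58.7 ± 2.01 in F0_5251OV for Pfkfb4 (SD, n = 3). They were 54.6 ± 1.49, 54.3 ± 2.91, 54.5 ± 7.09 and 53.6 ± 3.99 CPM for Pfkfb3 in the same order. These were the best bounded of the 9 genes. In F0_5251KD vs F0_3NC the 95% interval of the fold was 0.938 to 1.17 for Pfkfb4 and 0.862 to 1.15 for Pfkfb3, and in F0_5251OV vs F0_5NC it was 0.883 to 1.102 and 0.852 to 1.14. The direction of Pfkfb3 was not stable, since the log2 fold changes of -0.007 and 0.002 in F0_5251KD vs F0_3NC and F0_3NC vs F0_5NC changed sign under other scalings or filters.

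Bnip3, Ddit4 and Ankrd37 are HIF targets outside glycolysis. Bnip3 encodes a mitochondrial protein of mitophagy and cell death, and Ddit4 encodes REDD1, an inhibitor of mTORC1 that also answers other stresses. Bnip3 was at 21.9, 29.3 and 20.1 CPM in F0_3NC and 25.5, 20.7 and 20.6 CPM in F0_5251KD. It was at 24.5, 18.8 and 21.1 CPM in F0_5NC and 25.6, 18.9 and 15.2 CPM in F0_5251OV. Each group had 1 high library and all groups overlapped, with folds of 0.937 (95% interval 0.708 to 1.24) for knockdown and 0.929 (0.700 to 1.23) for overexpression.

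Ddit4 was at 14.2, 12.1 and 13.7 CPM in F0_3NC, 16.3, 12.5 and 15.1 CPM in F0_5251KD, 18.5, 11.8 and 11 CPM in F0_5NC, and 10.7, 11.9 and 11.6 CPM in F0_5251OV. The highest value was that of F0_5NC replicate 1, and the other 2 libraries of its group lay within the range of F0_5251OV. The log2 fold change of F0_5251OV vs F0_5NC was -0.28 ± 0.18 SE (adjusted p = 0.645 by edgeR), and -0.003 without that library. Ankrd37, an ankyrin repeat protein used as a marker of HIF-1 activity, was the most variable of the more abundant genes. It was at 4.12, 5.23 and 5.02 CPM in F0_3NC, 5.78, 2.53 and 2.87 CPM in F0_5251KD, 3.42, 3.5 and 4.22 CPM in F0_5NC, and 5.14, 4.57 and 3.62 CPM in F0_5251OV. The highest and the lowest of the 12 values were both in F0_5251KD. Its knockdown fold was 0.779 (95% interval 0.521 to 1.17) and its overexpression fold 1.197 (0.798 to 1.79), and the difference of these effects had an adjusted p of 0.516 by edgeR. The knockdown value rested on single libraries. Its log2 fold change was -0.36 with all libraries, -0.83 without F0_5251KD replicate 1 (unadjusted p = 0.00238, adjusted p = 1 by edgeR) and -0.15 without replicate 2, and the difference of effects ran from -1.09 to -0.42 when each library was left out in turn.

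Across all 4 groups, edgeR's F test gave the smallest p for Egln1 (F = 2.86, unadjusted p = 0.0766, adjusted p = 0.693). The 5 genes whose pattern over the 12 libraries was most like that of Egln1 were Lgmn, Gpd1l, Slc25a13, Gprasp2 and St3gal3. Their root-mean-square differences from Egln1, on centred log2 CPM, ran from 0.0956 for Lgmn to 0.106 for St3gal3. The median over 16295 genes was 0.287, and a flat pattern differed from Egln1 by 0.219. These genes shared the high F0_5NC replicate 1, as shown by Lgmn, a lysosomal protease, at up to 61.6 CPM in F0_5NC and at most 42.0 CPM in the other groups.

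Some libraries stood out for several of the genes. F0_5NC replicate 1 had the highest Egln1 and Ddit4 and the second highest Hif1a and Adm. The same library had the highest Sertoli cell sum (1480 CPM, others 764 to 1070), the highest macrophage sum (156 CPM, others 94.6 to 141), the highest endothelial sum (60.4 CPM, others 43.4 to 59), the second lowest germ cell sum (14600 CPM) and the lowest sum of the further HIF targets (6370 CPM, others 6710 to 7370). F0_3NC replicate 2 had the highest Hif1a, Bnip3 and Adm and the lowest Pfkfb4, with the lowest germ cell sum (14100 CPM, others 14600 to 18600) and the lowest Sertoli cell sum (764 CPM). F0_5251KD replicate 1 had the highest Vegfa, Egln3 and Ankrd37. It also had the highest Leydig cell sum (3100 CPM, with 3090 CPM in F0_5NC replicate 1). Its sum of 6 hemoglobin and red cell genes was the highest as well (107 CPM, others 37.4 to 75.4). The part of cell composition in these values was not tested.

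**Figure D3:**
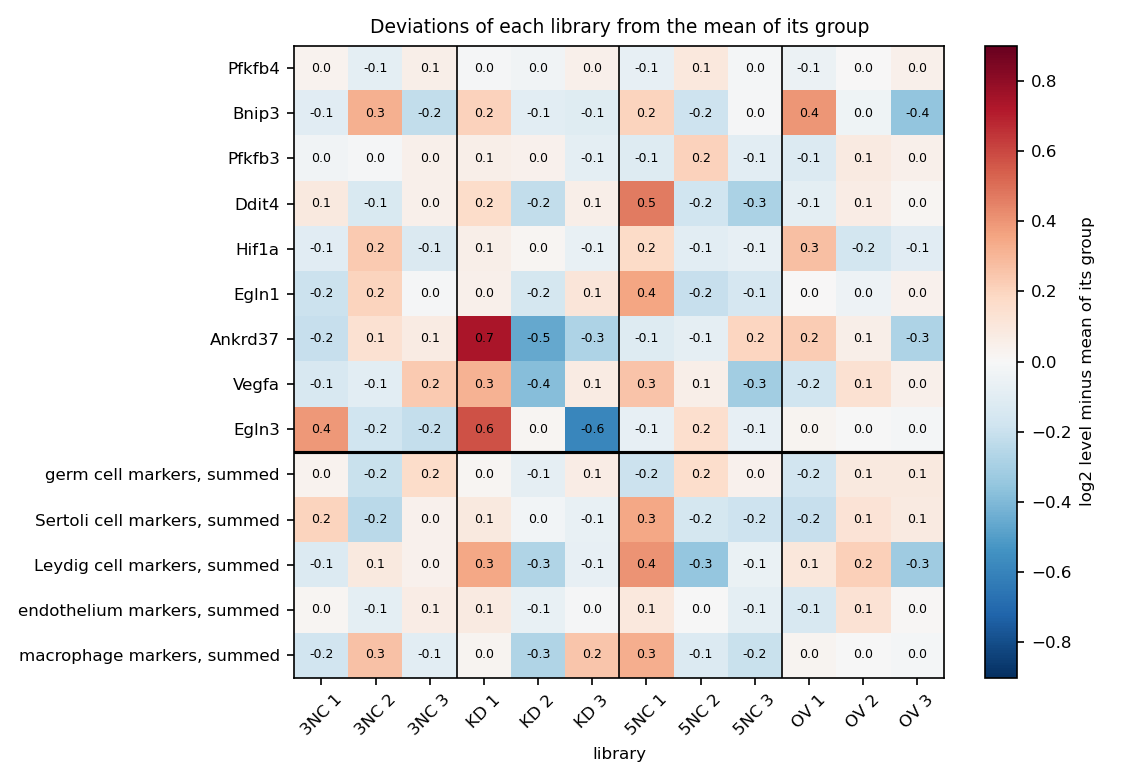
Deviation of each library (columns) from the mean of its group, in log2 units, for the 9 tested genes (above the line) and for the summed markers of 5 cell types (below it), with red for higher and blue for lower. F0_5NC replicate 1 was high for Ddit4, Egln1 and the Sertoli, Leydig and macrophage sums, and the rows of Hif1a and Bnip3 resembled each other.

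Whether the genes varied together was examined on deviations from the group means over 12 libraries, with an exact permutation test within groups (1296 arrangements, smallest possible p = 0.000772). Of 36 pairs, 23 correlated positively and 13 negatively, the median r was 0.104, and 0 passed an adjusted p of 0.05. Hif1a and Bnip3 had Pearson's r = 0.883 (exact permutation p = 0.0123, adjusted p = 0.148) and Spearman's rho = 0.748 (exact permutation p = 0.0455, adjusted p = 0.324), and r was 0.731 without the 2 libraries farthest from the median of Hif1a. Bnip3 and Pfkfb4 had r = -0.822 (exact permutation p = 0.00386, adjusted p = 0.139) and rho = -0.874 (exact permutation p = 0.00309, adjusted p = 0.111), with r = -0.755 without the 2 farthest. Hif1a and Pfkfb4 had r = -0.807 (exact permutation p = 0.00772, adjusted p = 0.139) and rho = -0.755 (exact permutation p = 0.0139, adjusted p = 0.25). Without the 2 libraries farthest from the median of Hif1a, r was -0.731. Each of these relations failed the correction over 36 pairs.

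The surrounding pathway was read from lists of the HIF machinery (16 genes), further HIF target genes (49 genes) and relatives of the 10 genes (10 genes). In the machinery, all 16 genes were tested and 0 were called in any comparison. Epas1, the HIF-2α gene, had a mean RPKM of 5.17 against 6.43 for Hif1a, and its CPM ranged from 22.0 to 33.3 in F0_5NC and from 22.5 to 24.1 in F0_5251OV (log2 fold change -0.28 ± 0.13 SE, adjusted p = 0.57 by edgeR). Hif3a, which encodes an α subunit with inhibitory forms, averaged 9.44 ± 4.07 CPM in F0_5251KD and 6.69 ± 1.18 in F0_3NC, with 14.1 CPM in 1 knockdown library, and 7.88 ± 0.475 in F0_5251OV and 5.62 ± 1.06 in F0_5NC (SD, n = 3). Arnt (HIF-1β) averaged 20.9 to 22.4 CPM over the 4 groups, Hif1an (the asparaginyl hydroxylase FIH) 53.8 to 56.9 CPM and Vhl 86.9 to 94.3 CPM. The relatives list had 8 of 10 genes tested and 0 called.

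Of the 49 further HIF targets, 46 were tested. In F0_5251KD vs F0_3NC 0 were called and the list's median log2 fold change was 0.002, and in F0_5251OV vs F0_5NC 0 were called with a median of -0.053. By the smallest unadjusted p, Gys1, muscle-type glycogen synthase, was the leading gene with the higher level in F0_5251KD (log2 fold change 0.81 ± 0.31 SE, adjusted p = 0.897 by edgeR), at counts of 41, 26 and 26 against 18, 13 and 22. Hmox1 led in the lower direction there (-0.41 ± 0.14 SE, adjusted p = 0.897). In F0_5251OV vs F0_5NC, Ndrg1, a stress-responsive gene, led in the lower direction (-0.35 ± 0.12 SE, adjusted p = 0.545). The smallest p in the higher direction over all the pathway lists was there that of the machinery gene Hif3a (0.49 ± 0.26 SE, adjusted p = 0.591). For the difference of effects Gys1 had 1.30 ± 0.43 SE (adjusted p = 0.403) and Slc2a3, the glucose transporter GLUT3, had -0.25 ± 0.12 SE (adjusted p = 0.441), both by edgeR.

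The control viruses gave a different picture. In F0_3NC vs F0_5NC 0.331% of all genes tested were called. The median of the further targets there was -0.016, with 21 higher and 25 lower. Of these 46 targets 3 were called, all higher in F0_3NC. They were Maff, a small MAF transcription factor (log2 fold change 1.79 ± 0.25 SE, adjusted p = 0.00422), Bhlhe40, a transcriptional repressor (1.19 ± 0.22 SE, adjusted p = 0.0434), and Hmox1, heme oxygenase 1 (1.02 ± 0.14 SE, adjusted p = 0.00422), all by edgeR. Each is known to answer growth factor, oxidative or stress signals as well as low oxygen. The same 3 genes were called, and no others of the list, in the LV3 against the LV5 groups (log2 fold changes from 0.86 for Hmox1 to 2.05 for Maff), where 0.706% of all genes were called. These 2 comparisons share the 6 control libraries.

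Maff was at 4.9, 5.23 and 4.62 CPM in F0_3NC, 6.42, 4.86 and 4.98 CPM in F0_5251KD, 1.38, 1.59 and 1.28 CPM in F0_5NC and 0.627, 1.11 and 1.55 CPM in F0_5251OV. All 6 LV3 libraries were above all 6 LV5 libraries, and so they were for Bhlhe40 (9.45 to 15.1 against 3.68 to 7.02 CPM) and Hmox1 (12.9 to 23.6 against 9.05 to 11.9 CPM). Bhlhe40 lost its call in F0_3NC vs F0_5NC in 9 of 12 fits that left out a library, all but those without F0_3NC replicate 1, F0_5251OV replicate 1 or F0_5251OV replicate 3, and Maff and Hmox1 kept theirs in all 12. In the LV3 against the LV5 groups all 3 calls were kept in each of the 12 fits.

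**Figure D4:**
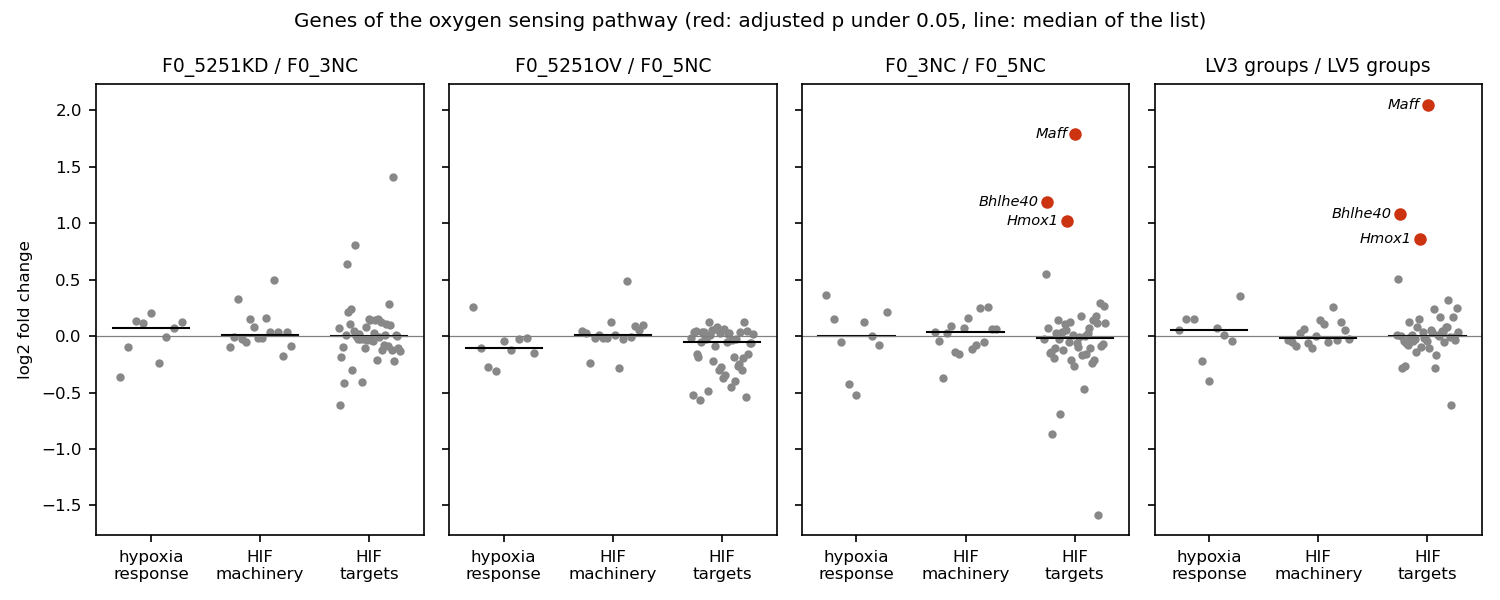
Log2 fold changes (vertical axis) of the tested genes among the 10 hypoxia response genes, the HIF machinery and further HIF targets in 4 comparisons, with 1 point per gene, the median of each list as a line, and red for an adjusted p under 0.05 by edgeR. The medians lay between -0.107 and 0.068 in all panels, and Maff, Bhlhe40 and Hmox1 stood above 0.8 in both comparisons that set the LV3 against the LV5 backbone.

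Immediate early genes, which are induced within minutes by many stimuli, moved in the same comparisons. Of 23 such genes, 11 were called higher in F0_3NC than in F0_5NC and 17 in the LV3 against the LV5 groups. Among all genes tested, 0.331% and 0.706% were called in these comparisons, in either direction. The immediate early sums were 431 to 495 CPM in F0_3NC, 642 to 715 in F0_5251KD, 313 to 325 in F0_5NC and 250 to 334 in F0_5251OV. In F0_5251KD vs F0_3NC 4 of the 23 were called by edgeR, all higher. They were the only genes called in that comparison (4 of 16296 tested, 0.0245%). In F0_5251OV vs F0_5NC 0 were called, with 0% of all genes, and 4 had an unadjusted p under 0.05 by edgeR, with 8.77% of all genes. The 10 hypoxia response genes summed to 194 to 206 CPM in F0_3NC, 190 to 209 in F0_5251KD, 189 to 208 in F0_5NC and 187 to 193 in F0_5251OV. Their sum overlapped between groups, except that F0_5251OV lay narrowly below F0_3NC. The steady Pfkfb4 (group means of 56.2 to 59.5 CPM) and Pfkfb3 (53.6 to 54.6 CPM) weigh most in this sum. It therefore says little about the scarcer genes. Of 5 tested markers of epididymis, the duct beside the testis, 3 were called lower in the LV3 than in the LV5 groups by edgeR, with 0.706% of all genes called. Their list summed to 3.62 to 12.7 CPM in the LV3 and 6.66 to 125 CPM in the LV5 libraries, so these ranges overlapped and the sum was high in only some LV5 libraries. The LV3 and LV5 groups differ in vector and in anything that went with it, such as the day of injection or collection, which cannot be told apart.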

How the data were processed

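RNA-seq of testis was analysed in 12 libraries, grouped by the labels. According to the study's methods, the authors enriched mRNA with oligo(dT), used SOAPaligner (version 2.20, up to 2 mismatches) to map reads onto reference genes and turned them into RPKM (reads scaled to transcript length and library size). The submitters' processing notes name the build mm10. The authors deposited RPKM beside a column that its values showed to hold estimated counts per gene. Of the deposited estimated counts, 11.959% were not whole, and they were rounded. The deposited RPKM values were used for levels between genes. These values had been assumed to be FPKM when the tests were set. Another 18 per-sample columns of the table belong to none of these libraries and were not used.

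All 12 libraries were fitted as 4 groups in edgeR (version 4.0.16, R version 4.3.3, scaled by TMM, filterByExpr with a minimum count of 10, glmQLFit and glmQLFTest, two-sided, Benjamini-Hochberg over 16296 genes, threshold 0.05). The fit was tested on simulated data. The study's own test, on counts summed per group, ignores the spread between libraries and was an alternative, as were DESeq2 1.42.0, limma 3.58.1, other scalings and filters, a replicate block and leaving out each library. Totals of 15431383 to 16355720 estimated counts per library set the precision of scarce genes. Named genes were the 10 members, 6 machinery genes, pathway genes called (or, where none was, the smallest p in each direction) and the 5 genes most like Egln1. The 10 genes and all lists were chosen with earlier results of these data known. Promoter windows came from RefSeq on GRCm38.p6. Of 21 mitochondrially encoded genes listed, 0 were matched and none was analysed here. For 1 gene of the HIF target list values are not reported here.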

Additional observations from a re-analysis of the deposited data

How the results depend on the processing

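None of the 9 tested genes was called in any comparison under any alternative, including a test on counts summed per group (which needs a log2 ratio of at least 1). Before that limit, the summed test gave 3 of the 10 genes an unadjusted p under 0.05 in F0_5251KD vs F0_3NC (lowest adjusted p = 0.000408). It was 4 genes in F0_5251OV vs F0_5NC (0.000178) and 3 in F0_3NC vs F0_5NC (5.15e-07). The summed test ignores the spread between libraries. The lowest adjusted p of a tested gene among 882 values from the other alternatives was 0.259. Direction was less stable. Pfkfb3 in F0_5251KD vs F0_3NC turned from -0.007 to 0.001 with DESeq2, 0.001 with no filter, 0.004 with a filter of 1 CPM and 0.009 with limma on log2(RPKM + 1) or log2(RPKM + 0.1). Pfkfb3 in F0_3NC vs F0_5NC turned from 0.002 to -0.007 with DESeq2, -0.015 with upper-quartile scaling, -0.008 with no filter, -0.011 with a filter of 1 CPM, -0.027 and -0.029 with limma on log2(RPKM + 1) and log2(RPKM + 0.1), and -0.011 in a fit of only the compared groups. Ankrd37 in the LV3 against the LV5 groups turned from 0.058 to -0.002 and -0.011 with the same limma fits. The cause of these changes of sign was not tested.

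When each library was left out in turn, some log2 fold changes crossed 0. In F0_5251KD vs F0_3NC the range was -0.206 to 0.084 for Bnip3, -0.123 to 0.449 for Egln3, -0.035 to 0.034 for Pfkfb3 and -0.043 to 0.29 for Vegfa. In F0_5251OV vs F0_5NC it was -0.331 to 0.054 for Bnip3, -0.082 to 0.036 for Egln3, -0.084 to 0.087 for Pfkfb3 and -0.058 to 0.029 for Pfkfb4. In F0_3NC vs F0_5NC it was -0.027 to 0.254 for Bnip3, -0.185 to 0.22 for Ddit4 and -0.06 to 0.113 for Pfkfb3. In the LV3 against the LV5 groups it was -0.173 to 0.166 for Ankrd37 and -0.019 to 0.066 for Pfkfb3. For the difference of effects it was -0.148 to 0.238 for Bnip3, -0.089 to 0.484 for Egln3, -0.2 to 0.029 for Hif1a and -0.094 to 0.087 for Pfkfb3. In F0_5251KD vs F0_3NC the median of the 9 genes lay between -0.043 (without F0_5251KD replicate 1) and 0.096. In F0_5251OV vs F0_5NC it lay between -0.136 and -0.034 (without F0_5NC replicate 1). In F0_3NC vs F0_5NC it lay between -0.041 and 0.214 (without F0_5NC replicate 1). The 3 further HIF targets called in F0_3NC vs F0_5NC were re-examined after seeing the data, and 2 or 3 stayed called, as they did under the other alternatives.

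Libraries with the same replicate number did not deviate together (correlations from -0.242 to 0.161, and a library correlated best with its own number in 8 of 36 cases), so the numbers were not taken to pair them. With a replicate block 0 of the 9 genes were called in any comparison, and the calls among all genes fell to 2 from 4 in F0_5251KD vs F0_3NC, to 50 from 54 in F0_3NC vs F0_5NC and to 89 from 115 between the backbones. Other tools called more genes at large. DESeq2 called 20, 30, 138 and 35 genes in F0_5251KD vs F0_3NC, F0_5251OV vs F0_5NC, F0_3NC vs F0_5NC and the difference of effects, against 4, 0, 54 and 0 for edgeR. The test on summed counts called 143, 191 and 307 genes in the first 3. Leaving out a library gave 0 to 7 calls in F0_5251KD vs F0_3NC, 0 to 1 in F0_5251OV vs F0_5NC and for the difference of effects, 30 to 68 in F0_3NC vs F0_5NC and 77 to 127 between the backbones, and the limma fits gave 73 and 74 in the last. Depth limits Adm (1 to 8 counts per library), which did not pass the filter on low counts, and Egln3 (8 to 18 counts).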
